A study of Mus musculus with 24 samples.

Results

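The mast cell chymases Mcpt4 and Cma1, the piRNA-pathway gene Gtsf1 and the synaptic organiser gene Cbln4 were followed in mouse embryonic fibroblasts (MEFs) given cardiac reprogramming cocktails. They are 4 of the 47967 genes in the deposited count table. Mcpt4, Gtsf1 and Cbln4 were chosen by their measured counts, which were at or near 0 in mock cells and high in at least 1 cocktail group, so their differences from mock are descriptions and were not tested. Cma1 was chosen as the chymase gene neighbouring Mcpt4, for the context of the locus, and its own differences from mock were tested. All 4 genes passed the filter on low counts that left 17576 genes for testing.

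The 24 libraries form 8 groups of 3, all from C57BL/6 MEFs prepared at embryonic day 13.5 to 14.5. The cells carried the retroviral cocktail AGHMT, GHMT or GMT, or were labelled mock, and total RNA was taken 7 or 2 days after transduction. The labels give the cocktails by letters alone, read here as the field reads them: Gata4, Mef2c and Tbx5 in GMT, with Hand2 added in GHMT and Akt1 added to those in AGHMT. Cocktail cells were transduced over a pair of 24 h periods and then kept in induction medium. Whether the mock cells received an empty virus or the same medium, and what share of cells took up each virus, is not given in the sources used here. Replicates are not said to be separate cultures, so each p-value measures the spread between these libraries, and no batch is named.

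Mast cells store chymases in their granules and release them on activation, and in the mouse the genes lie in a cluster on chromosome 14 with the granzymes and cathepsin G. Mcpt4 is the chymase of connective tissue mast cells whose cleavage preference is nearest to that of human chymase, and Cma1 (also called Mcpt5) is an elastase-like chymase often used to mark the same cells. Gtsf1 is a small zinc finger protein that works with PIWI proteins to silence transposons in the male germ line. Cbln4 is a secreted C1q-family protein of neurons that binds neurexins and Dcc.

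The genes are all on the minus strand (GRCm38, GENCODE annotation) and no other annotated gene overlaps them. Mcpt4 (ENSMUSG00000061068) spans chr14:56059629-56062313 and has 1108 exonic bases. Cma1 (ENSMUSG00000022225) spans chr14:55941451-55944675, 115.0 kb from Mcpt4, and has 1090 exonic bases. Gtsf1 (ENSMUSG00000022487) spans chr15:103402405-103430470 with 1390 exonic bases, and Cbln4 (ENSMUSG00000067578) spans chr2:172036233-172043466 with 2902 exonic bases. Of the 50-base windows of the Mcpt4 transcripts, 5.48% also occur in Cma2 or Mcpt9, and of those of Cma1, 5.38% also occur in the gene model Gm48934. Gtsf1 and Cbln4 share no such window with another gene.

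Because cocktail cells carry Gata4, Mef2c, Tbx5 and Hand2, the upstream sequences of the 4 genes are shown with the letters these factor families are known to prefer. Each run is the 250 bases before the RefSeq start (GRCm38.p6, minus strand, 5′ to 3′), with GATA and T-box matches in capitals. The runs lie at chr14:56062311-56062560 for Mcpt4, chr14:55944676-55944925 for Cma1, chr15:103430428-103430677 for Gtsf1 and chr2:172043467-172043716 for Cbln4.
Mcpt4: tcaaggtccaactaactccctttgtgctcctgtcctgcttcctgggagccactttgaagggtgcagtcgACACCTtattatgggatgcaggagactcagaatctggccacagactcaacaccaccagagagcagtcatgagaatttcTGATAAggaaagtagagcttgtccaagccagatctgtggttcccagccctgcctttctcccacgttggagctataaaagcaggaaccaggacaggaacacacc
Cma1: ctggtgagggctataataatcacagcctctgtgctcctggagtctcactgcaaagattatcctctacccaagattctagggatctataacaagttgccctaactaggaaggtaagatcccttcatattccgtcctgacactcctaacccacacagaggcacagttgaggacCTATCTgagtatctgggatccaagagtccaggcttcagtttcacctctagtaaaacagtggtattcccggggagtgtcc
Gtsf1: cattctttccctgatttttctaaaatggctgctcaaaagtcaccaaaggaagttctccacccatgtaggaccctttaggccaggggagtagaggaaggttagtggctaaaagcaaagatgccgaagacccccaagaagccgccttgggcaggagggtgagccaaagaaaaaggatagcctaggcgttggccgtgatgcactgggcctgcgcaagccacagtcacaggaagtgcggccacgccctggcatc
Cbln4: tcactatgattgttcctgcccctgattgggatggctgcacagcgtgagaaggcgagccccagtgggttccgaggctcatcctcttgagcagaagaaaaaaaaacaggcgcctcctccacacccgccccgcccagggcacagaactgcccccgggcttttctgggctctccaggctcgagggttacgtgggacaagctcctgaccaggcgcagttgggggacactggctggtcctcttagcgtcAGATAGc

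Matches were sought on both strands from 250 bases before to 50 bases after the start, with the start counted as 1. For GATA factors the letters were AGATAA or its variant AGATAG, as well as TGATAA or its variant TGATAG. Mcpt4 had 1 such match (TGATAA, first base at -103), Cma1 had 1 (CTATCT on the printed strand, at -79), Cbln4 had 1 (AGATAG, at -7) and Gtsf1 had 0. Among all 32851 RefSeq windows of this length, 29.8% held one. The T-box letters AGGTGT were found in Mcpt4 alone of the 4 (ACACCT on the printed strand, at -181), against 13.7% of all windows. A MEF2 match, held by 3.19% of all windows, occurred in none of the 4. The E-box CANNTG occurred 1 time in Cma1 and 2 times in Cbln4, against 72.3% of all windows. One of the Cbln4 E-boxes, at 37, was CATCTG, a Hand2-type E-box that 17.2% of all windows held and that is counted under both motifs. The Gtsf1 and Cbln4 windows held 13 and 15 CpG dinucleotides and the Mcpt4 and Cma1 windows 3 each, beside a median of 7.0 over all windows. These matches describe the letters of the windows and are not evidence of binding.

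The libraries held 29345957 to 37495178 counts on genes, which put the limit that a count of 0 allows (3 counts) at 0.0775 to 0.0999 CPM (the depth-scaled count, with TMM library sizes). The cocktail letters were checked at day 7, with the levels of Gata4, Hand2 and Akt1 given here. Gata4 averaged 632 ± 5.19 CPM with AGHMT, 1142 ± 85.8 with GHMT, 1021 ± 28.1 with GMT and 1.399 ± 0.0953 in mock cells (SD, n = 3 each). Hand2 averaged 1125 ± 10.9 CPM with AGHMT, 978 ± 42.0 with GHMT, 3.23 ± 0.199 with GMT and 7.58 ± 0.410 in mock cells. Akt1 averaged 451 ± 7.201 CPM with AGHMT, 382 ± 1.72 with GHMT, 380 ± 7.16 with GMT and 385 ± 22.5 in mock cells. Counts do not separate viral from endogenous transcripts, and Gata4 was lower with AGHMT than with GHMT. Of the 5 factors, 4 were higher and 0 lower in GHMT against GMT at day 7, where 37.5% of all tested genes passed. In AGHMT against GHMT at day 7, 2 were higher and 3 lower, where 48.7% passed. A factor's addition and the levels of the other viruses therefore cannot be told apart in any comparison of cocktails below. AGHMT day 2 replicate 3 stood apart from its group, at a chi-square per degree of freedom of 41.67 and 38.85 against the other AGHMT libraries of that day, which were at 2.046 against each other. GHMT replicate 2 of day 7 was next, at 10.51 and 9.823. GHMT day 2 replicate 3 was at 7.691 and 6.933, where the other GHMT libraries of that day were at 2.256 against each other. Without AGHMT day 2 replicate 3, every call that compares AGHMT at day 2 was kept for the 4 genes by edgeR, and the 2 interactions with day that then passed are given with their genes. Summed over 10 heart muscle genes, levels were 21040 to 21841 CPM with AGHMT and 22.5 to 25.7 CPM in mock cells at day 7. Summed over 10 fibroblast genes, they were 15367 to 16253 CPM with AGHMT and 71512 to 77539 CPM in mock cells.

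Mcpt4 had no count in any mock library and was counted in every cocktail library, at a level that differed widely between cocktails. At day 7 it had 5541, 5054 and 5914 counts with AGHMT, 2357, 2565 and 1896 with GHMT, 396, 444 and 427 with GMT, and 0, 0 and 0 in mock cells. At day 2 it had 1292, 1118 and 1712 counts with AGHMT, 374, 376 and 390 with GHMT, 63, 72 and 48 with GMT, and 0, 0 and 0 in mock cells. On either day, every AGHMT library lay above every GHMT library, and every GHMT library above every GMT library. Scaled for depth, the day 7 means were 171.6 ± 5.90 CPM with AGHMT, 65.96 ± 3.77 with GHMT and 11.96 ± 0.632 with GMT (SD, n = 3 each). The day 2 means were 40.5 ± 5.99 CPM with AGHMT, 12.6 ± 0.341 with GHMT and 1.69 ± 0.308 with GMT. In the order of the 8 groups, GHMT at day 2 and GMT at day 7 were the only neighbours with counts whose scaled values overlapped. AGHMT day 2 replicate 3, the library that stood apart, had the highest scaled value of its group (47.4 CPM, beside 37.4 and 36.7).

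Against 3 counts in each mock library, Mcpt4 at day 7 was at least 1878-fold higher with AGHMT, at least 722-fold higher with GHMT and at least 131-fold higher with GMT. At day 2 the same bounds were at least 471-fold with AGHMT, 146-fold with GHMT and 19.7-fold with GMT. Per length, Mcpt4 reached 155 ± 5.32 RPKM (CPM per kilobase of exon) with AGHMT at day 7, rank 212 from the top of the 17515 tested genes with a known length. With GMT at day 2 it was at 1.53 ± 0.278 RPKM, rank 10522, with 39.9% of those genes lower. In bulk RNA, more cells with the transcript and more transcript per cell cannot be told apart.

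The steps between cocktails were not themselves used to choose Mcpt4, although the choice asked for a high level in at least 1 cocktail group. They were tested with edgeR's quasi-likelihood test, with Benjamini-Hochberg adjustment over all 17576 genes. In AGHMT against GHMT, Mcpt4 was higher by a log2 difference of 1.38 ± 0.07 at day 7 (SE, adjusted p = 2.15e-12) and 1.69 ± 0.09 at day 2 (adjusted p = 1.03e-12). Without AGHMT day 2 replicate 3 the day 2 difference was 1.56. In GHMT against GMT, it was higher by 2.46 ± 0.09 at day 7 (adjusted p = 1.34e-15) and 2.89 ± 0.13 at day 2 (adjusted p = 9.52e-14). All 4 genes passed the test in AGHMT against GHMT at day 7, 2 higher and 2 lower, in a comparison where 48.7% of all tested genes passed, 25.0% higher and 23.6% lower. In GHMT against GMT at day 7, 3 of the 4 passed, all higher, where 37.5% of tested genes passed and 18.7% were higher. At day 2, 3 of the 4 passed in AGHMT against GHMT (52.7% of all genes) and 3 of 4 in GHMT against GMT (44.8%). AGHMT against GMT put all 4 past the threshold on both days, 2 higher and 2 lower, where 57.7% of genes passed at day 7 and 63.0% at day 2. With that many genes moving, a call alone says little about a gene, and the sizes carry the description.

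Day 7 levels of Mcpt4 exceeded day 2 levels by log2 differences of 2.08 ± 0.08 with AGHMT (edgeR, adjusted p = 3.00e-15), 2.39 ± 0.09 with GHMT (3.68e-15) and 2.82 ± 0.13 with GMT (2.13e-13). Of the 4 genes, 3 passed this test with AGHMT, 4 with GHMT and 2 with GMT, where 54.5%, 50.2% and 51.9% of all genes passed. Mcpt4, Gtsf1 and Cbln4 were chosen as high in at least 1 cocktail group, and each had its highest group mean at day 7. Their steps between days therefore share values with the choice, and the p-values are not independent of it. Whether the step between cocktails itself differed between days was tested as an interaction. The GHMT over GMT step was 0.43 smaller at day 7 than at day 2 (log2 -0.43 ± 0.17, edgeR adjusted p = 0.0929), and the AGHMT over GHMT step 0.31 smaller (log2 -0.31 ± 0.11, adjusted p = 0.0595). Neither passed, and each passed under some other settings. Without AGHMT day 2 replicate 3 the first passed (-0.43, adjusted p = 0.0157) and the second did not (-0.18, 0.113). With all libraries, none of the 4 genes passed either interaction by edgeR at an adjusted p under 0.05, which 16.6% of genes did for the GHMT over GMT step and 22.3% for the AGHMT over GHMT step.

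**Figure D1:**
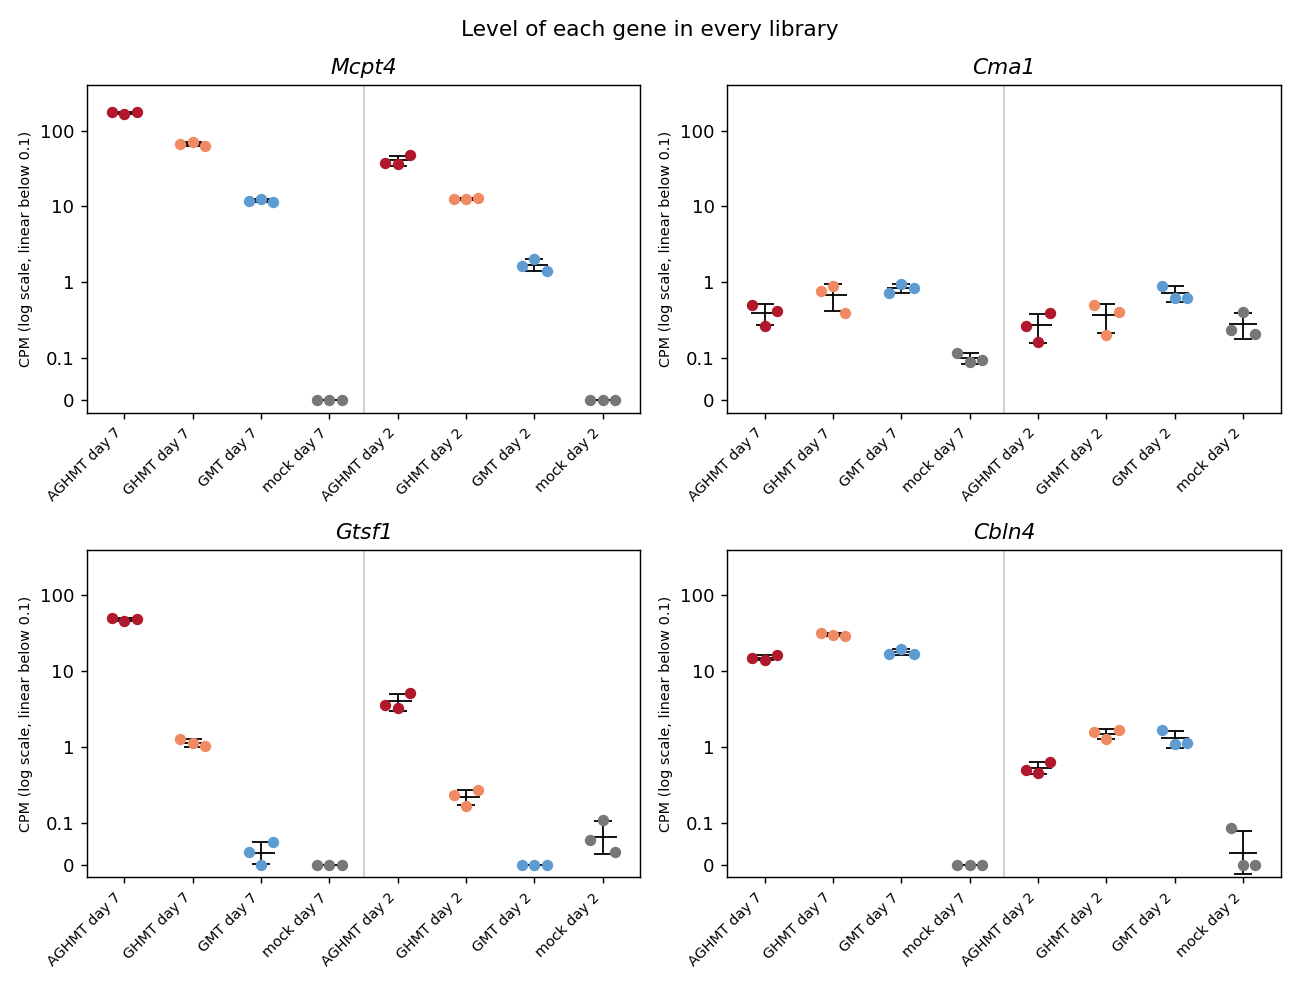
TMM-scaled level (CPM, log axis that is linear below 0.1) of each gene in every library, with 3 points per group and the mean ± SD in black, day 7 groups left of day 2 groups. Mcpt4 is at 171.6 CPM with AGHMT and at 0 in mock cells at day 7, Gtsf1 is at 47.9 CPM with AGHMT and 1.14 with GHMT, Cbln4 is highest with GHMT, and Cma1 stays under 1 CPM in every library.

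Cma1, the neighbouring chymase gene, stayed below 1 CPM everywhere. At day 7 it had 16, 8 and 14 counts with AGHMT, 27, 33 and 12 with GHMT, 24, 33 and 31 with GMT, and 4, 3 and 3 in mock cells. At day 2 it had 9, 5 and 14 counts with AGHMT, 15, 6 and 12 with GHMT, 35, 22 and 21 with GMT, and 8, 15 and 7 in mock cells. Every cocktail library at day 7 was above every mock library of that day, while at day 2 the AGHMT and GHMT libraries overlapped the mock libraries. In the order of the 8 groups, mock at day 7 was lowest and apart from the next group, and all other neighbours overlapped.

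Against mock at day 7, Cma1 was higher by log2 1.92 ± 0.50 with AGHMT (edgeR quasi-likelihood test, adjusted p = 0.00134), 2.73 ± 0.44 with GHMT (5.21e-06) and 2.99 ± 0.42 with GMT (7.36e-07). These comparisons share the same mock libraries, and 76.8%, 72.0% and 73.0% of all tested genes passed in them. As ratios the day 7 differences were 3.90 (95% counting interval 1.91 to 8.77) with AGHMT, 6.89 (3.54 to 14.98) with GHMT and 8.18 (4.25 to 17.7) with GMT. At day 2, Cma1 was higher with GMT (log2 1.32 ± 0.34, adjusted p = 0.00133), where 67.1% of genes passed. It did not pass with GHMT (0.35 ± 0.41, adjusted p = 0.464), where 68.2% of genes passed, or with AGHMT (-0.05 ± 0.42, adjusted p = 0.923), where 75.4% passed.

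Part of the day 7 contrast lay in the mock cells, where Cma1 averaged 0.101 ± 0.0149 CPM at day 7 and 0.283 ± 0.107 CPM at day 2 (SD, n = 3 each). That difference was log2 -1.46 ± 0.53 (edgeR adjusted p = 0.0225), in a comparison where 55.5% of genes passed. It lost its call without mock day 7 replicate 2 (-1.38, adjusted p = 0.0645), without mock day 7 replicate 3 (-1.42, 0.0583) and without mock day 2 replicate 2 (-1.10, 0.141). With so few counts, 1 library can decide a call on this gene.

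Cma1 did not follow Mcpt4 across the cocktails. In AGHMT against GMT it was lower at day 7 (log2 -1.06 ± 0.31, edgeR adjusted p = 0.00548) and at day 2 (-1.37 ± 0.34, 0.00125), where Mcpt4 was higher by 3.84 ± 0.09 and 4.58 ± 0.12. In AGHMT against GHMT at day 7 it was lower by log2 -0.81 ± 0.33 (adjusted p = 0.0436). That call was lost with DESeq2 (adjusted p = 0.0734) and in a fit of the compared libraries alone (0.0539). It was also lost without AGHMT day 7 replicate 2 (adjusted p = 0.182) or 3 (0.0783), without GHMT day 7 replicate 1 (0.112) or 2 (0.229), and without GMT day 7 replicate 3 (0.0502). In GHMT against GMT, Cma1 was lower at day 2 (-0.98 ± 0.33, adjusted p = 0.0191, lost without GHMT day 2 replicate 2 at 0.126 or GMT day 2 replicate 1 at 0.114) and did not pass at day 7 (-0.25 ± 0.28, 0.517). Between days it was higher at day 7 with GHMT (0.93 ± 0.34, adjusted p = 0.0258), a call lost without GHMT day 7 replicate 1 (0.0731) or 2 (0.154), without GHMT day 2 replicate 2 (0.153) and in a fit of the GHMT libraries alone (0.0517). It did not pass with AGHMT (0.51 ± 0.40, 0.295) or GMT (0.20 ± 0.27, 0.560).

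Within the chymase and granzyme locus, Mcpt2 had the next highest mean level after Mcpt4 with each cocktail at day 7 and, like Mcpt4, no count in mock cells. Its start lies 20.3 kb from that of Mcpt4, and it encodes a mucosal mast cell protease. Mcpt2 averaged 20.2 ± 2.77 CPM with AGHMT, 18.2 ± 2.14 with GHMT, 3.37 ± 0.947 with GMT and 0 in mock cells at day 7 (SD, n = 3 each). At day 2 it averaged 12.2 CPM with AGHMT, 16.7 with GHMT, 0.442 with GMT and 0 in mock cells. That order did not hold in every group of day 2, since Mcpt2 was above Mcpt4 with GHMT, and with GMT it was below Gzme (0.979 CPM) and Cma1 (0.716 CPM). In GHMT against GMT at day 7, Mcpt2 was higher by log2 2.43 ± 0.15 (edgeR adjusted p = 3.49e-11), beside 2.46 ± 0.09 for Mcpt4. Set against GHMT, AGHMT at day 7 did not pass (0.15 ± 0.13, adjusted p = 0.331), beside 1.38 ± 0.07 for Mcpt4. Per length, the Mcpt4 level was 6.97 to 9.70 times the Mcpt2 level in the AGHMT libraries of day 7, 2.98 to 3.99 times in the GHMT libraries and 2.76 to 4.35 times in the GMT libraries. In the GHMT libraries of day 2 it was 0.710 to 0.743 times, so there Mcpt2 was also the higher of the pair per length.

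The rest of the locus was low. Of 13 other chymase, granzyme and cathepsin genes listed for it, 4 passed the filter (Mcpt2, Cma2, Mcpt8 and Gzme), and all 4 were higher with AGHMT than in mock cells at day 7, where 38.6% of tested genes were higher. In AGHMT against mock at day 2, 2 were higher (Mcpt2 and Cma2) and 2 lower (Mcpt8 and Gzme), where 75.4% of genes passed in either direction. The 4 had to have counts in some group to be tested at all. Cma2, the gene next to Cma1, averaged 0.471 CPM with AGHMT, 0.929 with GHMT, 0.762 with GMT and 0 in mock cells at day 7. Gzme, a granzyme, averaged 2.71 CPM with AGHMT, 2.68 with GHMT, 2.04 with GMT and 0.363 in mock cells. Mcpt8, a basophil protease gene, averaged 1.82 CPM with AGHMT, 2.31 with GHMT, 1.18 with GMT and 0.952 in mock cells. At day 2, Mcpt8 averaged 0.199 CPM with AGHMT and 2.04 in mock cells, and Gzme 0.607 CPM with AGHMT and 0.987 in mock cells. In mock cells, day 7 was below day 2 for Mcpt8 (log2 -1.10 ± 0.25, edgeR adjusted p = 6.98e-04) and for Gzme (-1.42 ± 0.29, 1.67e-04), so part of their day 7 contrast lay in the mock cells, as for Cma1. None of the 4 was higher in AGHMT against GHMT at day 7, and Cma2 was lower (log2 -0.94 ± 0.31). Mcpt1 and Mcpt9, which lie between Cma2 and Mcpt2, did not pass the filter. Over 3 libraries each at day 7, Mcpt1 had 25 counts with AGHMT, 23 with GHMT, 4 with GMT and 0 in mock cells. At day 2 it had 17, 3, 0 and 1 in the same order. Mcpt9 had 4, 1, 3 and 2 at day 7. Beyond the cluster, Khnyn averaged 20.2 CPM with AGHMT and 34.1 in mock cells, and Sdr39u1 14.0 CPM with AGHMT and 22.8 in mock cells.

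**Figure D2:**
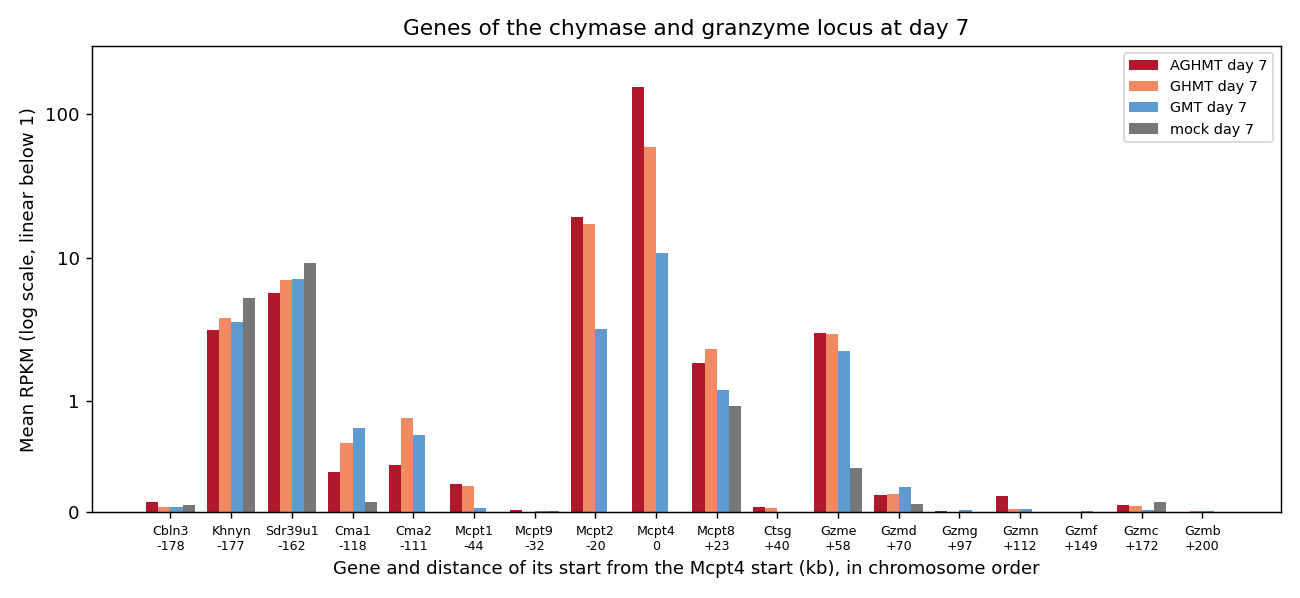
Mean level per length (RPKM, log axis that is linear below 1) of 18 named genes around Mcpt4 at day 7, in chromosome order, with the distance of each start from the Mcpt4 start in kb. Among the protease genes, Mcpt4 (155 RPKM with AGHMT) and Mcpt2 (19.07 RPKM) stand above the rest, while Cma1, whose start is 118 kb away, stays under 1 RPKM.

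Other mast cell genes moved in both directions, and 7 of 17 were too low to be tested. At day 7 AGHMT against mock, 3 of the 10 tested were higher and 6 lower, beside 38.6% and 38.1% of all tested genes, with a median log2 difference of -1.68 beside -0.0033 over all tested genes. At day 2 AGHMT against mock, 4 were higher and 5 lower, where 75.4% of genes passed in either direction, with a median of -0.63 beside -0.0012. Il1rl1, the interleukin-33 receptor, averaged 14.0 CPM with AGHMT and 108 in mock cells at day 7, and 6.398 CPM with AGHMT and 496 in mock cells at day 2.

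Kit, the stem cell factor receptor, averaged 0.147 CPM with AGHMT, 0.302 with GHMT, 1.56 with GMT and 0.608 in mock cells at day 7. The day 2 means of Kit were 0.469 CPM with AGHMT, 0.917 with GHMT, 4.59 with GMT and 0.181 in mock cells. Kit was thus highest with GMT on both days. Hdc, the enzyme that makes histamine, averaged 0.628 CPM with AGHMT, 0.326 with GHMT, 0.179 with GMT and 0.194 in mock cells at day 7. The day 2 means of Hdc were 2.61 CPM with AGHMT, 1.88 with GHMT, 0.683 with GMT and 0.748 in mock cells. Hdc was higher in AGHMT than in mock cells on both days (log2 1.70 ± 0.36, edgeR adjusted p = 1.42e-04, and 1.79 ± 0.20, 1.38e-08). Gata2, a transcription factor of the lineage, averaged 1.69 CPM with AGHMT and 6.70 in mock cells at day 7, and Mitf, another, 22.3 CPM with AGHMT and 13.3 in mock cells.

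Other listed genes were near 0. For 7 of them, picked after their values were seen, the highest count in any of the 18 cocktail libraries was 7 for Ms4a2, 4 for Cpa3, 2 for Tpsab1, 1 each for Fcer1a, Tpsb2 and Mrgprb2, and 0 for Mrgprb1. Their summed level was 0.163 to 0.268 CPM with AGHMT and 0.591 to 0.919 CPM in mock cells at day 7. Summed over all 17, the level was 47.2 to 54.8 CPM with AGHMT and 143 to 149 CPM in mock cells at day 7, a gap made by Il1rl1. The other 16 summed to 35.4 to 38.1 CPM with AGHMT and 36.6 to 38.6 CPM in mock cells at day 7, and to 25.9 to 27.9 CPM with AGHMT and 28.4 to 30.7 CPM in mock cells at day 2. Summed over 14 macrophage genes, the level was 43.4 to 61.8 CPM with AGHMT and 398 to 579 CPM in mock cells at day 7. The part of these genes in the chymase results was not tested.

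Gtsf1 was abundant with AGHMT alone among the cocktails. At day 7 it had 1579, 1403 and 1623 counts with AGHMT, 46, 41 and 31 with GHMT, 1, 0 and 2 with GMT, and 0, 0 and 0 in mock cells. At day 2 it had 124, 100 and 184 counts with AGHMT, 7, 5 and 8 with GHMT, 0, 0 and 0 with GMT, and 2, 4 and 1 in mock cells. The AGHMT libraries stood clear of every other group on both days, and the GMT and mock libraries were at or near 0. AGHMT day 2 replicate 3 again had the highest scaled value of its group (5.10 CPM, beside 3.59 and 3.29). The day 7 means were 47.9 ± 1.96 CPM with AGHMT and 1.14 ± 0.138 with GHMT, and the day 2 means 3.99 ± 0.970 with AGHMT and 0.221 ± 0.0512 with GHMT (SD, n = 3 each). Per length it reached 34.5 ± 1.41 RPKM with AGHMT at day 7, rank 1433 from the top.

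Relative to mock at day 7, Gtsf1 was at least 524-fold higher with AGHMT and at least 12.5-fold higher with GHMT, with no fold given for GMT, where both groups were within the floor. At day 2 the ratio to mock was 60.4 with AGHMT (95% counting interval 29.0 to 151) and 3.31 with GHMT (1.34 to 9.25). The mock side rests on 7 counts in all. These intervals cover counting error only, without the spread between libraries, and are not a test of a contrast that chose the gene. The day 7 step from GHMT to AGHMT was the largest of any tested between cocktails for the 4 genes where both groups had more than 3 counts in every library. In AGHMT against GHMT, Gtsf1 was higher by log2 5.38 ± 0.13 at day 7 (edgeR adjusted p = 7.82e-18) and 4.16 ± 0.25 at day 2 (1.25e-11). Gtsf1 was chosen as high in at least 1 cocktail group and was high with AGHMT alone. Its steps to AGHMT therefore share values with the choice, and their p-values are not independent of it. The day 2 difference was 3.94 without AGHMT day 2 replicate 3. In GHMT against GMT it was also higher at day 7 (ratio 40.5, counting interval 13.5 to 199, adjusted p = 1.70e-08) and at day 2 (at least 2.64-fold, adjusted p = 2.32e-04). The GMT side of the day 7 ratio rests on 3 counts in all, 2 of them in replicate 3, and the fitted log2 difference was 5.97 without that library and 5.17 with it.

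Gtsf1 was higher at day 7 than at day 2 by log2 3.57 ± 0.11 with AGHMT (edgeR adjusted p = 1.31e-16) and 2.35 ± 0.33 with GHMT (4.46e-06). With GMT, 3 counts at day 7 and 0 at day 2 gave no call (adjusted p = 0.121). The AGHMT step between days shares values with the choice of Gtsf1, as its steps to AGHMT do. The step from GHMT to AGHMT was larger at day 7 than at day 2 by log2 1.22 ± 0.44 (adjusted p = 0.0542), which did not pass and did so under some other settings, among them without AGHMT day 2 replicate 3 (1.44, 0.00476). Of the 10 genes nearest to Gtsf1, 6 were tested and none passed in AGHMT against GHMT at day 7 by edgeR at an adjusted p under 0.05, where 48.7% of all genes passed. In AGHMT against GHMT at day 2, 1 of the 6 was higher and 2 lower (52.7% of all genes passed). At day 7, 3 of the 6 were higher and none lower both in AGHMT against GMT (57.7% of all genes) and in GHMT against GMT (37.5%).

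Other piRNA and germ line genes moved in both directions against mock cells. Of 26 others in the table, 15 were tested. In AGHMT against mock, 8 were higher and 4 lower at day 7, beside 38.6% and 38.1% of all tested genes, and 5 were higher and 5 lower at day 2, where 75.4% of genes passed in either direction. At day 7, 6 of the 15 were higher in AGHMT than in GHMT and 0 lower, beside 25.0% and 23.6% of all tested genes, with a median log2 difference of 0.18 beside -0.0024 over all tested genes. Mov10l1 encodes a helicase needed to make piRNAs in the testis and also has a heart-expressed form. It averaged 21.1 CPM with AGHMT, 10.9 with GHMT, 0.295 with GMT and 0.00985 in mock cells at day 7, with an AGHMT over GHMT difference of log2 0.94 ± 0.10 and a GHMT over GMT difference of 5.17 ± 0.20. Tdrd9, another piRNA helicase, averaged 1.53 CPM with AGHMT, 0.431 with GHMT, 0.547 with GMT and 0.191 in mock cells, an AGHMT over GHMT difference of 1.80 ± 0.23. Piwil2, the mouse gene for a PIWI partner of Gtsf1, had at most 35 counts in a cocktail library and 36 in a mock library, and Piwil1 at most 1 and 0. Summed over all 26, the level was 133 to 140 CPM with AGHMT and 55.8 to 63.9 CPM in mock cells at day 7, and 105 to 116 CPM with AGHMT and 104 to 119 CPM in mock cells at day 2. Most of that sum was Tdrd7, a tudor-domain gene, at 100.4 CPM with AGHMT and 46.8 in mock cells at day 7.

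A sum was taken over 7 germ cell genes picked after their values were seen (Ddx4, Dazl, Piwil1, Piwil2, Mael, Nanos2 and Stra8). It was 0.848 to 1.13 CPM with AGHMT and 3.26 to 3.43 CPM in mock cells at day 7. At day 2 it was 1.42 to 1.80 CPM with AGHMT and 1.196 to 1.87 CPM in mock cells. The day 7 gap lay in Ddx4, a germ cell helicase, which averaged 0.287 CPM with AGHMT and 2.61 CPM in mock cells. The other 6 summed to 0.624 to 0.818 CPM with AGHMT and 0.539 to 0.886 CPM in mock cells. Among them, Dazl averaged 0.292 CPM with AGHMT and 0.101 in mock cells at day 7, and 0.533 and 0.114 at day 2. The 7 do not stand for the whole list, of which 8 of 15 tested genes were higher and 4 lower in AGHMT against mock at day 7. The part of these genes in the Gtsf1 result was not tested.

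Cbln4 was the one of the 4 that was highest with GHMT. At day 7 it had 476, 430 and 545 counts with AGHMT, 1125, 1114 and 888 with GHMT, 575, 686 and 632 with GMT, and 0, 0 and 0 in mock cells. At day 2 it had 17, 14 and 23 counts with AGHMT, 47, 38 and 51 with GHMT, 65, 39 and 38 with GMT, and 3, 0 and 0 in mock cells. No cocktail library overlapped a mock library, and at day 7 the scaled values of the 3 cocktails did not overlap each other. The day 7 means were 15.1 ± 1.09 CPM with AGHMT, 30.3 ± 1.195 with GHMT and 17.9 ± 1.48 with GMT (SD, n = 3 each). The day 2 means were 0.530 ± 0.0943 CPM with AGHMT, 1.503 ± 0.224 with GHMT and 1.30 ± 0.327 with GMT. Per length, it reached 10.4 ± 0.412 RPKM with GHMT at day 7.

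Relative to mock at day 7, Cbln4 was at least 165-fold higher with AGHMT, 332-fold with GHMT and 196-fold with GMT. At day 2 the ratios were 18.6 with AGHMT (95% counting interval 6.05 to 93.2), 52.4 with GHMT (17.6 to 257) and 45.9 with GMT (15.4 to 225), each resting on the 3 counts of 1 mock library. As for Gtsf1, these intervals cover counting error only and are not a test. In AGHMT against GHMT, Cbln4 was lower by log2 -1.01 ± 0.09 at day 7 (edgeR adjusted p = 3.65e-09) and -1.49 ± 0.25 at day 2 (2.77e-05). In GHMT against GMT it was higher by 0.76 ± 0.09 at day 7 (2.79e-07) and did not pass at day 2 (0.19 ± 0.20, 0.476). Whether the GHMT over GMT step differed between the days missed the threshold (0.57 ± 0.22, adjusted p = 0.0897). Against GMT, AGHMT was lower by -1.29 ± 0.25 at day 2 (9.93e-05). At day 7 it was lower by -0.24 ± 0.09 (0.0313), a call lost without AGHMT replicate 1 (0.0745) or 2 (0.132) or GMT replicate 2 (0.169). Mcpt4 and Gtsf1 were higher, and Cbln4 lower, in the same AGHMT libraries set against the same GHMT libraries.

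Cbln4 had the largest increases between the days of the 4 genes. Day 7 exceeded day 2 by log2 4.81 ± 0.16 with AGHMT (edgeR adjusted p = 7.48e-17), 4.33 ± 0.13 with GHMT (1.41e-17) and 3.76 ± 0.13 with GMT (2.68e-16). Cbln4 was chosen as high in at least 1 cocktail group and reached its high levels at day 7. These steps between days therefore share values with the choice, and their p-values are not independent of it. None of the 10 annotated genes nearest to Cbln4 passed the filter on low counts, and 9 of them had at most 3 counts in every library.

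**Figure D3:**
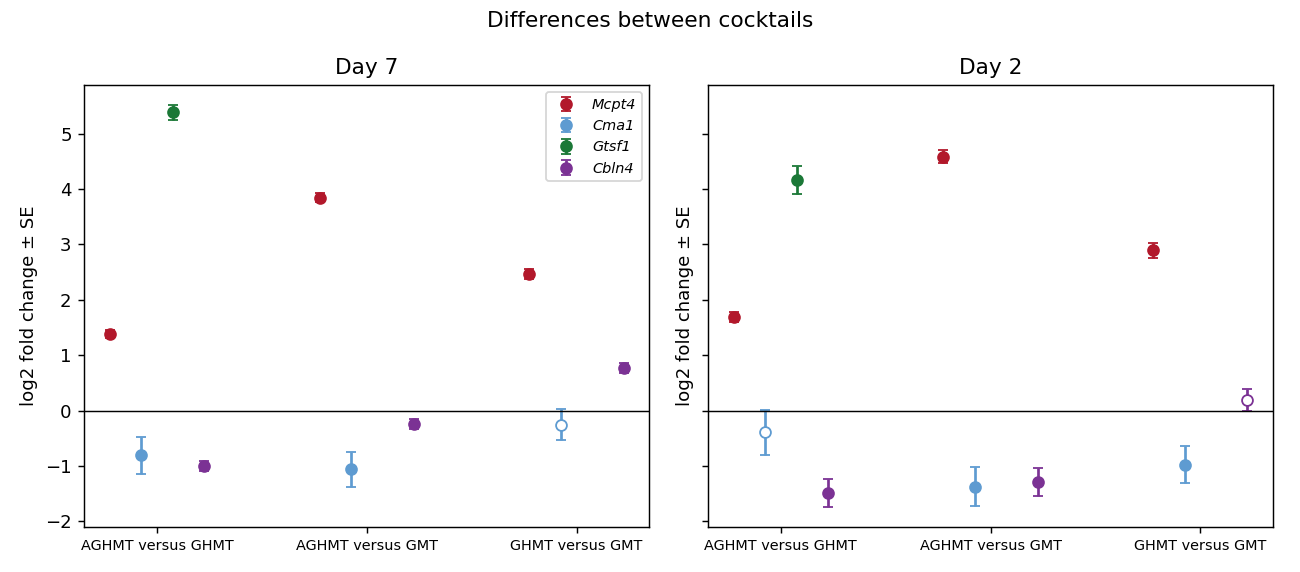
Fitted log2 fold change ± SE between cocktails for each gene at day 7 and day 2, filled where the adjusted p was under 0.05 and open where not; Gtsf1 against GMT is left out because GMT had 3 counts or fewer in all. AGHMT against GHMT separates Gtsf1 (5.38 at day 7) and Mcpt4 (1.38) above 0 from Cma1 (-0.81) and Cbln4 (-1.01) below it.

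The cerebellin family and its partners held more genes higher than lower against mock cells. The number that passed in either direction was near the share of all tested genes. Of 15 others listed, 11 were tested. Against mock at day 7, 6 were higher and 3 lower with AGHMT, 6 and 4 with GHMT, and 4 and 3 with GMT, where 76.8%, 72.0% and 73.0% of all tested genes passed in either direction. The 9, 10 and 7 of 11 that passed are near that background. At day 2, 7 were higher and 2 lower with AGHMT, 7 and 2 with GHMT, and 6 and 1 with GMT. There 75.4%, 68.2% and 67.1% of all tested genes passed in either direction. C1ql3, a secreted C1q-family relative, averaged 8.79 CPM with AGHMT, 28.9 with GHMT, 85.9 with GMT and 1.598 in mock cells at day 7, an order unlike that of Cbln4. Cbln2 averaged 2.17 CPM with AGHMT, 0.779 with GHMT, 2.95 with GMT and 0.469 in mock cells. The Cbln4 partner Dcc averaged 0.564 CPM with AGHMT, 0.109 with GHMT, 0.104 with GMT and 0.446 in mock cells at day 7. Nrxn3, a neurexin, averaged 2.66 CPM with AGHMT, 2.06 with GHMT, 3.71 with GMT and 0.245 in mock cells at day 7. The day 2 means of Dcc were 1.445 CPM with AGHMT, 1.602 with GHMT, 0.869 with GMT and 0.1696 in mock cells. Mean Dcc was thus above mock cells with every cocktail at day 2, and with AGHMT alone at day 7. The day 2 means of Cbln2 were 2.399 CPM with AGHMT, 2.231 with GHMT, 11.49 with GMT and 0.445 in mock cells. Summed over 15 neural genes, levels were 328 to 329 CPM with AGHMT, 354 to 373 with GHMT, 301 to 326 with GMT and 156 to 160 in mock cells at day 7. At day 2 they were 104 to 128 CPM with AGHMT, 169 to 172 with GHMT, 200 to 207 with GMT and 209 to 242 in mock cells. Tubb3, a neuronal tubulin, and Nes, the intermediate filament nestin, made up most of the cocktail sums. The other 13 summed at day 7 to 14.8 to 17.3 CPM with AGHMT, 12.5 to 13.6 with GHMT, 25.1 to 28.3 with GMT and 75.6 to 81.8 in mock cells. Most of that mock sum was Map2, at 68.1 CPM there and 3.45 to 4.61 with the cocktails. Of the 15, 12 were tested. Against mock at day 7, 6 were higher and 2 lower with AGHMT, 5 and 2 with GHMT, and 7 and 4 with GMT. Of all tested genes, 76.8%, 72.0% and 73.0% passed. At day 2, 3 were higher and 6 lower with AGHMT, 2 and 4 with GHMT, and 2 and 3 with GMT. There 75.4%, 68.2% and 67.1% of all genes passed. The part of these genes in the Cbln4 result was not tested.

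**Figure D4:**
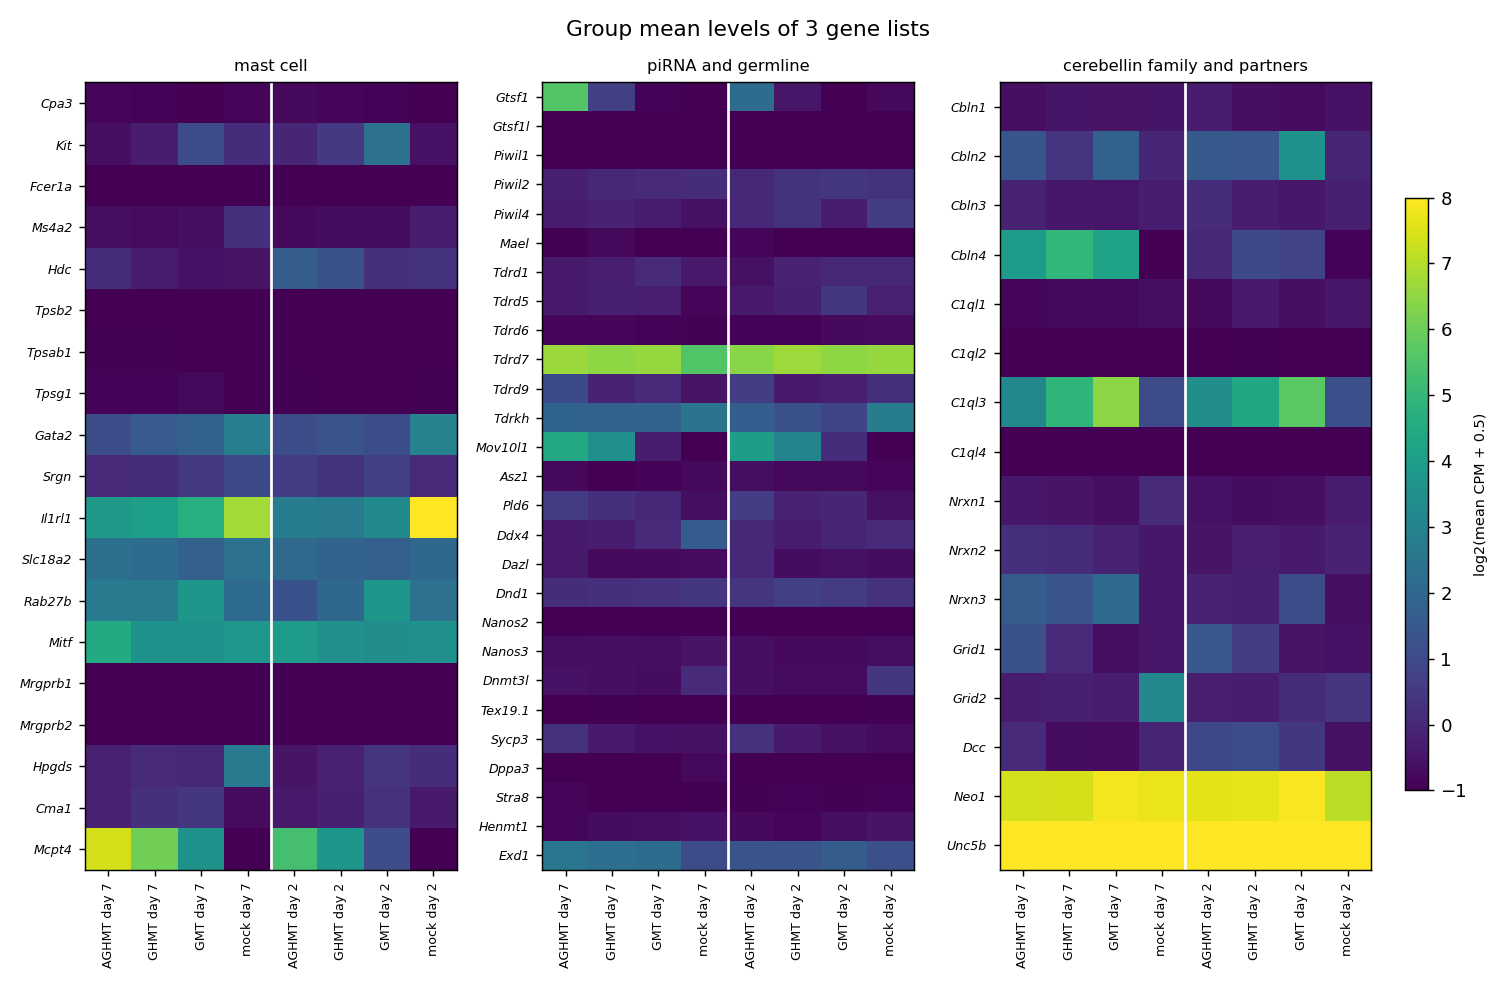
Group means, as log2(CPM + 0.5), of the mast cell, piRNA and germ line, and cerebellin lists in the 8 groups, day 7 left of day 2, with the colour scale capped at 8. Mcpt4, Gtsf1 with Mov10l1, and Cbln4 with C1ql3 are low in mock cells and reach high levels in a cocktail group, while each list also holds genes that are higher in mock cells, such as Il1rl1.

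The 3 chosen genes were set among all genes that were silent in mock cells. Of the 47967 genes, 27520 had at most 3 counts in each of the 6 mock libraries, and 35 of these (0.073% of the table) averaged at least 10 CPM in a cocktail group. Mcpt4 ranked 2 by its highest group mean and Cbln4 ranked 12. Gtsf1 fell just outside, because 1 mock library of day 2 had 4 counts, and Cma1 was outside with up to 15 counts in mock cells. Sln, the sarcolipin gene of atrial muscle, ranked 1 with 246 CPM with GMT at day 7. After Mcpt4 came Kcnj5, an atrial potassium channel gene (166 CPM with AGHMT), Sfrp5, a secreted Wnt antagonist gene (160 CPM with AGHMT), and Csrp3, the muscle LIM protein gene (132 CPM with GMT). In AGHMT cells of day 7, Mcpt4 was the highest of the 35, and it ranked 3 with GHMT and 15 with GMT. Mcpt4 and Cbln4 were chosen by much the same description that defines the 35, so their ranks are a description and no support for the choice. Of the 35, 22 were highest in an AGHMT group, 28 in a day 7 group, and 15 had the order AGHMT over GHMT over GMT at day 7 that Mcpt4 had. Mcpt2 and Mov10l1 were among the 35.

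**Figure D5:**
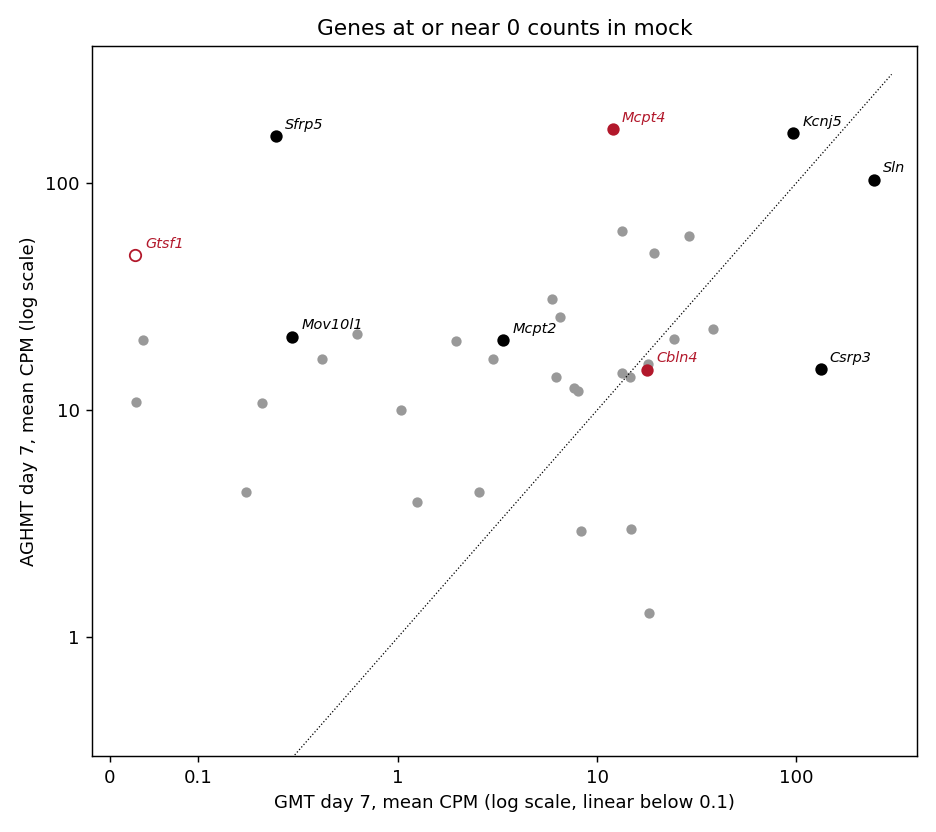
Mean CPM with AGHMT (vertical, log axis) against GMT (horizontal, log axis that is linear below 0.1) at day 7 for the 35 genes silent in mock cells, with the studied genes in red and the line of equal levels dotted. Mcpt4 (171.6 CPM) is the highest point with AGHMT, Cbln4 lies near the line, and Gtsf1, shown open because 1 mock library had 4 counts, lies at the left edge with 47.9 CPM.

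Among tested, named protein-coding genes outside the 4, those whose levels over the 24 libraries were most like each of the 4 differed from gene to gene. By Pearson correlation of log2(CPM + 0.5), a description that shares the same 8 groups for every gene, Mcpt4 was nearest to Sh3bgr (0.993), Nebl (0.992) and Myh6 (0.990). Sh3bgr is a striated muscle gene, Nebl encodes the cardiac Z-disc protein nebulette and Myh6 the alpha heavy chain of cardiac myosin. Myh6 averaged 4608 CPM with AGHMT, 887 with GHMT, 253 with GMT and 0.681 in mock cells at day 7. Gtsf1 was nearest to Gjd4 (0.990), a connexin gene, Ankrd63 (0.988) and the vasopressin gene Avp (0.977). Cbln4 was nearest to Fez2 (0.988), Trim54 (0.981) and Bicd2 (0.975), of which Trim54 encodes a muscle ubiquitin ligase. Cma1 was nearest to Surf2 (0.902), Gtf2f1 (0.891) and Plscr1 (0.886). By Spearman correlation, 1 of the 3 nearest genes remained for Mcpt4 and 0 for each of the other genes. Between the 4 genes the coefficients were 0.763 for Mcpt4 with Gtsf1, 0.753 for Mcpt4 with Cbln4, 0.396 for Gtsf1 with Cbln4 and 0.331 for Mcpt4 with Cma1. Cma1 had 0.670 with Cbln4 and -0.076 with Gtsf1.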

How the data were processed

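RNA from 24 MEF libraries was sequenced by the submitters. Per the submitters' processing notes, the build was GRCm38 (mm10) and the tools named are featureCounts 1.4.6, HISAT2 2.0.1, DESeq2 1.6.3 and Trim Galore 0.4.1. No source used here gives the strand setting or the annotation release. The authors deposited raw read counts per gene, used here for every value, and a table of log2 values. The deposited log2 table was checked to equal log2 CPM with values under 1 CPM set to 0 (largest difference 0.00603). Viral and endogenous transcripts of a factor share a count, and reads of antisense partners cannot be separated.

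Counts were filtered with filterByExpr and scaled by TMM, and 8 group means were fitted to all 24 libraries with edgeR 4.0.16 in R 4.3.3 (quasi-likelihood test, two-sided, Benjamini-Hochberg adjustment over 17576 genes, threshold 0.05). The common biological coefficient of variation was 5.55%. The script was tested on simulated data. The genes and lists were chosen with earlier results of these data known. Named are the 4 genes, the 5 factors, members of the lists, the 5 nearest annotated genes on each side and the 5 highest of the genes silent in mock cells. Also named are the 3 genes most alike by Pearson correlation. These were sought among tested protein-coding genes outside the 4, without unnamed gene models. Folds against 0 counts use a floor of 3 counts per library, and intervals (exact, 95%) and floors cover counting error only. RPKM values divide TMM-scaled CPM by the union exon length from GENCODE. Replicates differed by a chi-square per degree of freedom of 1.489 to 41.67, so none was taken as a repeat of another library, and AGHMT day 2 replicate 3 stood farthest from its group. Alternatives were RLE factors, no filter, a replicate block, DESeq2 1.42.0, fits of the compared groups alone, fits without each library in turn, and other limits for the silent set. Upstream sequences are RefSeq's (GRCm38.p6), matched by symbol for all 4 genes.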

Additional observations from a re-analysis of the deposited data

How the results depend on the processing

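The 4 genes gave 51 tests and 1474 values under alternatives, of which 1435 kept the direction and the side of the threshold, 20 lost their call, 16 gained one and 3 changed sign. In 40 of the tests no alternative changed either. The sign changes came with single libraries left out of values that had not passed. The Gtsf1 difference of the GHMT over GMT step between days ranged from -1.27 to 0.061 over the leave-one-out fits, with 0.061 without GMT day 7 replicate 3. The Cma1 difference of AGHMT from mock at day 2 ranged from -0.40 to 0.32, with 0.19 without AGHMT day 2 replicate 2 and 0.32 without mock day 2 replicate 2. The gained calls were all in the interactions with day. Without the filter, adjusted p was 0.0362 for the Mcpt4 GHMT over GMT step, 0.0306 for that of Cbln4, 0.00633 for the Mcpt4 AGHMT over GHMT step and 0.0260 for that of Gtsf1. With DESeq2 it was 0.0340 for the Cbln4 GHMT over GMT step, 0.0463 for the Mcpt4 AGHMT over GHMT step and 0.0114 for that of Gtsf1. The cause was not tested.

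The number of genes silent in mock cells that reached a cocktail level of 10 CPM was 35, and it was 6 with 0 counts required in every mock library, 91 with at most 10 counts, 66 at 5 CPM and 22 at 20 CPM. By the limit used, replicate numbers did not pair the libraries: in none of 16 comparisons did every pair of same-numbered libraries correlate above 0.1 (range -0.0738 to 0.274). In AGHMT against GHMT at day 2, however, the pairs correlated at 0.0937, 0.072 and 0.274 for replicates 1, 2 and 3. Whether the replicate 3 libraries of that day shared a source of spread was not tested. With the replicate block, Cma1 in AGHMT against GHMT at day 7 did not pass (-0.80, adjusted p = 0.0525), the Gtsf1 AGHMT over GHMT step between days did (1.22, 0.0487), and 8511 genes passed in AGHMT against GHMT at day 7 in place of 8553. Counts of passing genes stayed within 1.5 times under every alternative run. Depth limits Cma1, with 3 to 35 counts a library, and Gtsf1 and Cbln4 in mock cells.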
